A study of Mus musculus with 17 samples.

Results

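The enteroendocrine transcription factors described here are 9 genes, Neurog3, Neurod1, Isl1, Pax4, Pax6, Nkx2-2, Insm1, Rfx6 and Hhex, of 27768 gene names tested. Members were taken by the gene name in the scanner files, which gave 13 probes of 55681, and 12 of the 13 passed the filter on dim probes. The 17 Agilent mouse arrays, each with 1 colour, read RNA of intestinal cells sorted as stem cells from LGR5-GFPki mice, whose GFP marks expression of Lgr5. The question was how cells with high and low Lgr5 reporter signal differ before and after gamma-irradiation. The groups were irradiated LGR5hi (12 Gy, n = 4), non-irradiated LGR5hi (0 Gy, n = 4), irradiated LGR5lo (12 Gy, n = 4) and non-irradiated LGR5lo (0 Gy, n = 5). Mice of all 4 groups carried the reporter, and cells were taken by flow cytometry 3 hours after irradiation, with 2 female arrays in each group and the others male. The labels do not say whether replicates were separate animals or pools, nor the age of the mice, so p-values measure the spread between these arrays only.

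Enteroendocrine cells are the hormone-producing cells of the gut epithelium and belong to its secretory lineage. In mice, Neurog3 starts the programme in progenitors that have low Notch signalling. Neurod1, Insm1, Pax4, Pax6, Isl1, Nkx2-2, Rfx6 and others then act in committed cells and shape which hormones they make. Hhex is a homeobox repressor that mouse pancreatic delta cells, which make somatostatin, depend on, and it is also expressed in endothelial and B cells.

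Values are normalized log2 signals, meaning the log2 processed signal of a probe minus the 75th percentile of its array, so 0 is the level of a bright probe at that percentile. Levels are compared for 1 probe between arrays, never between probes. A gene was called changed at a Benjamini-Hochberg adjusted p under 0.05 in a limma fit over all genes and all 17 arrays, and errors of log2 differences are standard errors of that fit. The 75th percentile of the raw signal was 286 to 607 intensity units, and 58% to 73.5% of probes were well above background, on the arrays other than non-irradiated LGR5lo replicate 2. That array stood apart, with 95.6% of probes above background. The file of non-irradiated LGR5hi replicate 1 was damaged and its values were rebuilt from the deposited series table, without background flags, so counts of arrays above background are out of 3 in that group. Lgr5 itself was higher in LGR5hi than in LGR5lo cells, by 2.89 ± 0.29 log2 after irradiation (adjusted p = 1.18e-05) and by 3.14 ± 0.28 log2 without it (adjusted p = 2.85e-06). All 7 stem cell markers examined were higher in LGR5hi cells in both arms, where 2.21% of all genes were called higher after irradiation and 4.62% without it. These 7 markers include Lgr5, whose reporter set the sort. Irradiation lowered 5 of them in LGR5hi and 4 in LGR5lo cells, where 7.29% and 3.02% of all genes were called lower. The median difference of these markers between the sorts was 1.70 log2 after irradiation and 1.90 log2 without it. Cdkn1a, a p53 target that halts the cell cycle, was higher in irradiated cells, by 4.91 ± 0.31 log2 in LGR5hi (adjusted p = 4.11e-08) and by 2.90 ± 0.30 log2 in LGR5lo (adjusted p = 1.44e-05).

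Promoters of 4 members are shown first, because 2 of the 9 members, Neurog3 and Neurod1, are proteins that bind the E-box (CANNTG, a palindrome, so both strands are covered). RefSeq windows of the GRCm38.p6 build were found for 7 of the 9 members, and 250 bases upstream of each start were searched. Pax6 has 2 starts, which makes 8 windows. The E-box was in 5 of these 8 windows and in 66.2% of 32851 windows of all genes, and the N-box bound by Hes repressors (CACNAG, both strands) was in 2 of 8, against 36.7% of all windows. A match is a description of these letters only. Capitals mark each E-box, and the Hhex window, shown because this gene was higher in irradiated LGR5hi cells, holds neither motif.
Neurog3, chr10:62132840-62133089, plus strand: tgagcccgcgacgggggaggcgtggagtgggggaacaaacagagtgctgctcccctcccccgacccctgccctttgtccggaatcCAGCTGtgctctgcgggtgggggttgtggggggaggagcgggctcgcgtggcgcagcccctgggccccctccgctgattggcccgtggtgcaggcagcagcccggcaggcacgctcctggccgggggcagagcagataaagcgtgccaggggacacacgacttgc
Neurod1, chr2:79456637-79456886, minus strand: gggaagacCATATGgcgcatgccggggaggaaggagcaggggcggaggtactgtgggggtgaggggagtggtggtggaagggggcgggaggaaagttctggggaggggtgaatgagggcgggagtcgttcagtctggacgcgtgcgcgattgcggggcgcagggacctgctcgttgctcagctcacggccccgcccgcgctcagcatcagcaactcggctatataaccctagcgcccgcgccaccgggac
Isl1, chr13:116309689-116309938, minus strand: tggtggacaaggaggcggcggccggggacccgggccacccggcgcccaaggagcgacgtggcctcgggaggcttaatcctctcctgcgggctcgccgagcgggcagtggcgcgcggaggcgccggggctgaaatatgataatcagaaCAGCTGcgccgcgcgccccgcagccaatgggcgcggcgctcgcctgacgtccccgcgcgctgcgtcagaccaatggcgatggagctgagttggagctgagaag
Hhex, chr19:37434591-37434840, plus strand: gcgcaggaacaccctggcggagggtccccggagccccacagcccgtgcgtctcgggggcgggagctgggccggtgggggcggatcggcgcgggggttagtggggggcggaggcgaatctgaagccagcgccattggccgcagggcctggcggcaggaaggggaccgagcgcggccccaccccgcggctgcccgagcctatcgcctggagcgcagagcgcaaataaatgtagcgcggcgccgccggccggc

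Without irradiation, LGR5hi cells gave a lower signal for every member than LGR5lo cells. All 9 of 9 members were lower, where 4.93% of all genes tested were called lower, 4.62% higher and 9.55% in either direction. All 9 had groups that did not overlap, where 5.17% of genes were lower and 5.7% higher without overlap. By the tested probes the differences lay between -4.90 and -1.56 log2, the lowest that of Hhex, which was above background on 1 of 3 non-irradiated LGR5hi arrays with flags, with a median of -3.33 log2 against -0.08 log2 over all genes. After irradiation 8 of the 9 were lower, against 4.09% of all genes called lower, 2.21% higher and 6.31% in either direction. Without overlap, 7 of the 9 were lower, where 10.1% of genes were lower and 11.1% higher. Their median difference after irradiation was -2.84 log2, against 0.05 log2 over all genes, and Hhex was the member that did not pass the test. In sorted bulk RNA, fewer enteroendocrine cells in a sort and less RNA of these genes per cell cannot be told apart. Within slide 1, which carried replicates 1 and 2 of each group, all 9 members were below 0 in both arms, from -4.13 to -1.04 log2 after irradiation and from -5.14 to -1.51 log2 without it, with 4 and 2 of the 9 called. Within slide 2, which carried replicates 3 and 4, all 9 were again below 0, from -4.58 to -0.75 log2 after irradiation and from -4.68 to -1.49 log2 without it, with 6 and 9 called. With a normexp background correction, 5 of 9 passed the test after irradiation. Pax6 (-0.44 log2, adjusted p = 0.217), Neurod1 (-1.04 log2, adjusted p = 0.0761) and Nkx2-2 (-0.63 log2, adjusted p = 0.0513) lost their calls there. Several differences that were still called were smaller, among them Isl1 at -1.73 log2 and Rfx6 at -2.16 log2 after irradiation and Hhex at -2.09 log2 without it.

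**Figure D1:**
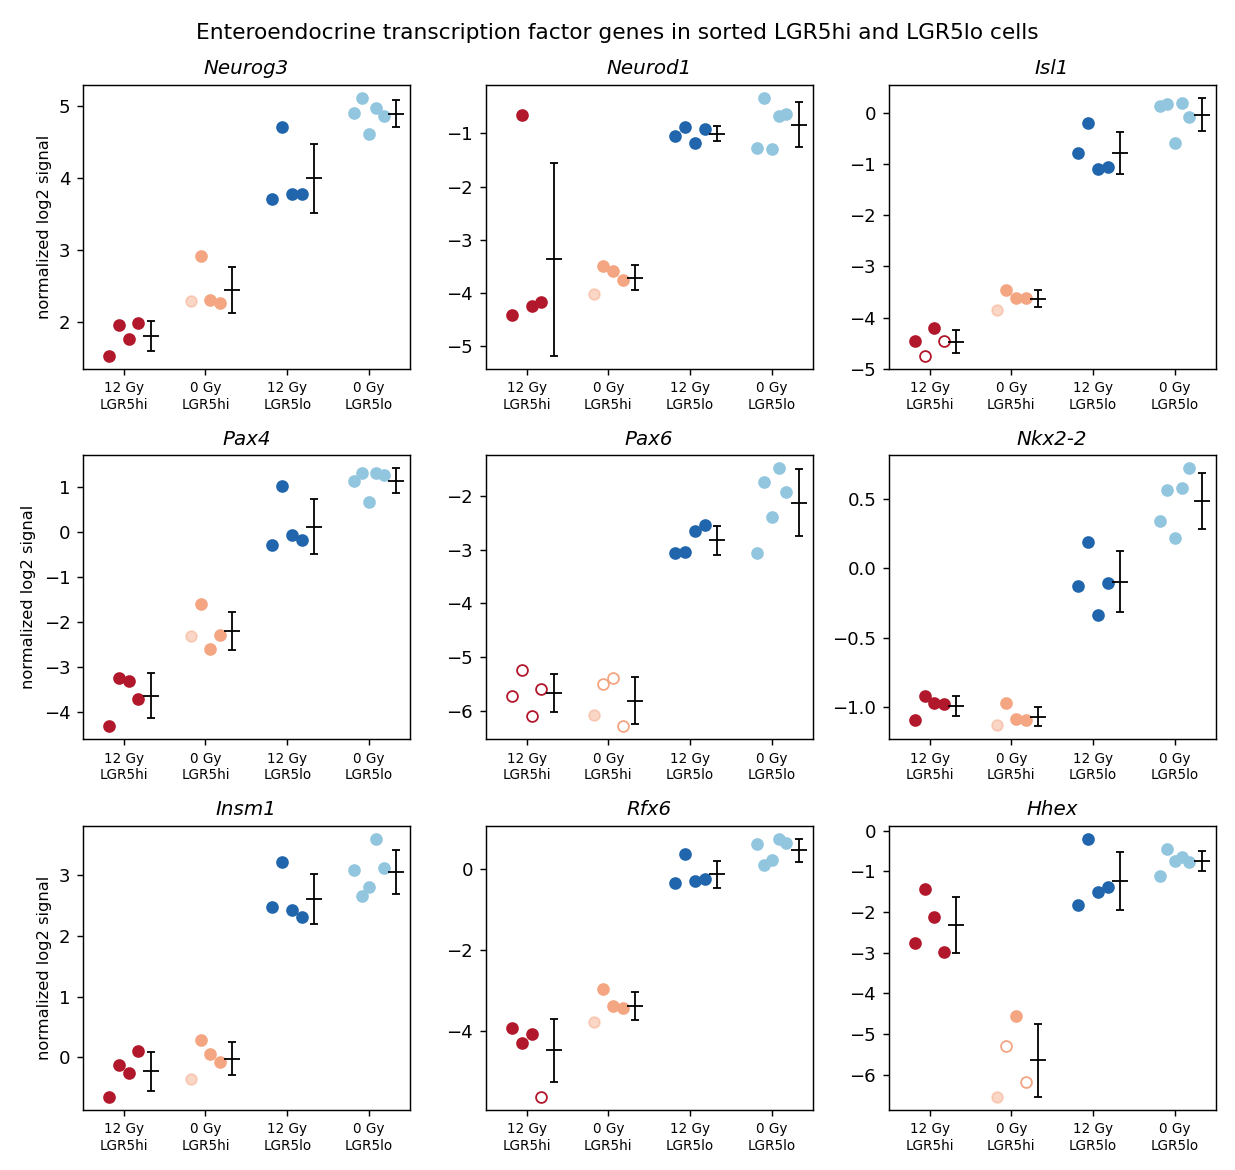
Normalized log2 signal (y axis, its own range in each panel) of the tested probe of each member on every array, by group (x axis: dose and sort). Open circles are arrays on which the probe was not well above background, pale circles the rebuilt array without flags, and black bars the mean ± SD; LGR5hi arrays lie below LGR5lo arrays in most panels, and Hhex in irradiated LGR5hi cells lies well above Hhex in non-irradiated LGR5hi cells.

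**Figure D2:**
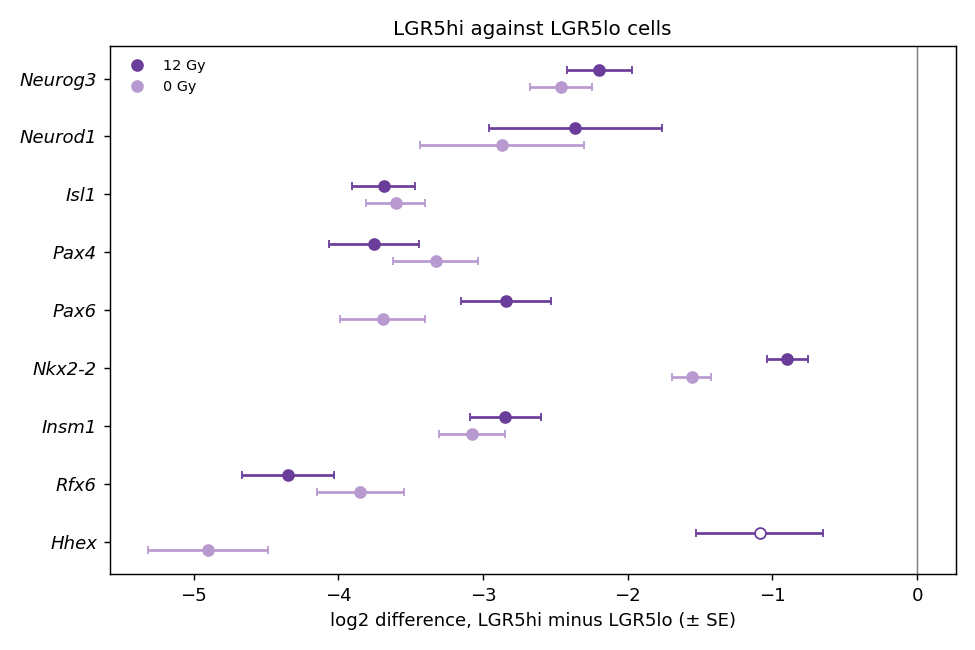
Log2 difference of LGR5hi minus LGR5lo cells (x axis, ± SE) for each member after 12 Gy and at 0 Gy. Filled points passed the test over all genes; all 9 passed at 0 Gy, and Hhex alone did not after 12 Gy.

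Neurog3, the basic helix-loop-helix factor that commits progenitors to the endocrine fate, was read by a probe at chr10:61597452-61597511 (mm9, the build of the scanner files). Its normalized log2 signal was 1.52, 1.95, 1.75 and 1.97 in irradiated LGR5hi cells and 2.29, 2.91, 2.30 and 2.26 in non-irradiated LGR5hi cells. In LGR5lo cells it was 3.71, 4.71, 3.78 and 3.78 after irradiation and 4.91, 5.12, 4.61, 4.98 and 4.87 without. Every LGR5hi array lay below every LGR5lo array, and replicate 2 was the highest array of both the non-irradiated LGR5hi and the irradiated LGR5lo group. LGR5hi minus LGR5lo was -2.20 ± 0.22 log2 after irradiation (adjusted p = 1.32e-05) and -2.46 ± 0.21 log2 without it (adjusted p = 2.59e-06). Its dimmer probe, at chr10:61596051-61596110, was not well above background on any LGR5hi array with flags, and it was above background on 1 of 4 irradiated and 3 of 5 non-irradiated LGR5lo arrays. The brightest reading of that probe, -1.96 log2, came from non-irradiated LGR5lo replicate 2, the array that stood apart, and the other LGR5lo arrays without irradiation read -5.32 to -4.02 log2, so no fold is given for it.

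Neurod1, a factor of the same family that acts just after Neurog3 in mice, was read by 2 probes that differed in LGR5hi cells, above all on 1 array. The brighter was above background on 4 of 4 irradiated and 3 of 3 non-irradiated LGR5hi arrays with flags, the dimmer on 0 of 4 and 1 of 3. The brighter probe, at chr2:79294309-79294368 (mm9) in the coding sequence, is shown because its reading decides the level in irradiated LGR5hi cells.
Neurod1 brighter probe: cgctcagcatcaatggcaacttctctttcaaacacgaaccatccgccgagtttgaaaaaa
It gave -4.41, -0.65, -4.23 and -4.17 log2 in irradiated LGR5hi cells and -4.03, -3.50, -3.58 and -3.75 log2 in non-irradiated LGR5hi cells. In LGR5lo cells it gave -1.05, -0.88, -1.18 and -0.91 log2 after irradiation and -1.28, -0.33, -1.29, -0.68 and -0.64 log2 without. Replicate 2 of irradiated LGR5hi cells lay within the range of LGR5lo arrays, and the groups therefore overlapped after irradiation but not without it. The dimmer probe, at chr2:79293621-79293680, gave -6.71, -6.81, -6.62 and -6.96 log2 in irradiated LGR5hi cells, so replicate 2 did not stand apart there, against -1.28 to -1.05 log2 in irradiated LGR5lo cells. By the brighter probe LGR5hi minus LGR5lo was -2.36 ± 0.60 log2 after irradiation (adjusted p = 0.0261) and -2.87 ± 0.57 log2 without it (adjusted p = 0.00411). Without replicate 2 of irradiated LGR5hi cells the first of these was -3.27 log2, and the call after irradiation was kept in 10 of the 17 fits that each left out 1 array. The Neurod1 difference after irradiation was -1.04 log2 under normexp correction and did not pass the test (adjusted p = 0.0761). By the dimmer probe, which was not above background in irradiated LGR5hi cells, Neurod1 was at least 15.7-fold lower in irradiated LGR5hi than in irradiated LGR5lo cells (adjusted p = 7.04e-07 in the limma fit of all probes). Without irradiation the dimmer probe gave -5.00 ± 0.35 log2 (adjusted p = 1.37e-06 in the same fit). The bound of 15.7-fold applies to the dimmer probe and its processed signals only, and the brighter probe gave a smaller difference. Without irradiation the smallest Neurod1 difference under any alternative was -1.62 log2. The size of the Neurod1 difference thus depended on the probe and on the processing.

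Insm1, a zinc-finger repressor of endocrine precursors, gave -0.65, -0.12, -0.25 and 0.10 log2 in irradiated LGR5hi cells and -0.35, 0.29, 0.05 and -0.07 log2 in non-irradiated LGR5hi cells. In LGR5lo cells the same probe, at chr2:146050603-146050662, gave 2.48, 3.23, 2.43 and 2.31 log2 after irradiation and 3.09, 2.66, 2.81, 3.60 and 3.12 log2 without. The sorts did not overlap in either arm. The difference was -2.85 ± 0.24 log2 after irradiation (adjusted p = 2.60e-06) and -3.08 ± 0.23 log2 without it (adjusted p = 8.04e-07).

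Rfx6, a winged-helix factor upstream of several islet genes in mice, was lower in LGR5hi than in LGR5lo cells in both arms. Its probe, at chr10:51450116-51450175, gave -3.94, -4.30, -4.07 and -5.64 log2 in irradiated LGR5hi cells against -0.36, 0.36, -0.31 and -0.24 log2 in irradiated LGR5lo cells. Without irradiation it gave -3.80, -2.97, -3.39 and -3.43 log2 in LGR5hi cells against 0.60, 0.10, 0.20, 0.72 and 0.64 log2 in LGR5lo cells. No LGR5hi array reached the lowest LGR5lo array, and replicate 4 of irradiated LGR5hi cells was below background. The difference was -4.35 ± 0.32 log2 after irradiation (adjusted p = 6.42e-07) and -3.85 ± 0.30 log2 without it (adjusted p = 1.14e-06). Leaving out the array below background gave -3.96 log2 after irradiation, and normexp correction gave -2.16 log2 in that arm. Without irradiation the smallest Rfx6 difference under any alternative was -2.59 log2. No fold is therefore given for either arm.

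Isl1, a LIM homeobox factor of hormone-expressing cells, and Pax4, a paired-box repressor that acts early in mouse endocrine progenitors, were each lower in LGR5hi cells in both arms. The Isl1 probe, at chr13:117088774-117088833 and averaged over 10 spots, gave -4.46, -4.75, -4.21 and -4.46 log2 in irradiated LGR5hi cells against -0.78, -0.20, -1.09 and -1.06 log2 in irradiated LGR5lo cells. Without irradiation it gave -3.86, -3.46, -3.62 and -3.61 log2 in LGR5hi cells against 0.13, 0.18, -0.58, 0.19 and -0.08 log2 in LGR5lo cells. Isl1 thus did not overlap between the sorts, with a difference of -3.69 ± 0.22 log2 after irradiation (adjusted p = 8.17e-08) and -3.60 ± 0.21 log2 without it (adjusted p = 7.39e-08). The Pax4 probe, at chr6:28392356-28392415, gave -4.32, -3.24, -3.30 and -3.71 log2 in irradiated LGR5hi cells against -0.30, 1.01, -0.07 and -0.19 log2 in irradiated LGR5lo cells. Without irradiation Pax4 gave -2.32, -1.60, -2.59 and -2.29 log2 in LGR5hi cells against 1.12, 1.31, 0.65, 1.30 and 1.26 log2 in LGR5lo cells. Again no LGR5hi array reached an LGR5lo array. The Pax4 difference was -3.75 ± 0.31 log2 after irradiation (adjusted p = 1.88e-06) and -3.33 ± 0.29 log2 without it (adjusted p = 2.96e-06).

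Pax6, a paired-box and homeobox factor that acts on several hormone genes in mice, was measured above background in LGR5lo cells alone. Its 2 probes are shown because they read different parts of the coding sequence: the brighter reads the end of the coding sequence at chr2:105536454-105536513, and the dimmer reads bases of an alternatively included exon of the paired domain, within chr2:105524098-105524949.
Pax6 brighter probe: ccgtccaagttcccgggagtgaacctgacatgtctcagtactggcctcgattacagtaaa
Pax6 dimmer probe: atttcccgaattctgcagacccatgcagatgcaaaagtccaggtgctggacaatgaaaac
The brighter probe gave -5.73, -5.24, -6.09 and -5.59 log2 in irradiated LGR5hi cells against -3.06, -3.04, -2.65 and -2.55 log2 in irradiated LGR5lo cells. Without irradiation it gave -6.08, -5.50, -5.39 and -6.29 log2 in LGR5hi cells against -3.07, -1.74, -2.39, -1.48 and -1.93 log2 in LGR5lo cells. It was well above background on all 9 LGR5lo arrays and on none of the 7 LGR5hi arrays with flags. By these signals Pax6 was at least 5.01-fold lower in irradiated LGR5hi than in irradiated LGR5lo cells (adjusted p = 2.56e-05). In the non-irradiated sorts it was at least 8.07-fold lower (adjusted p = 1.34e-06). Each bound was taken against the lowest signal of any probe above background on the dim arrays. Both bounds depend on the processing. With normexp the Pax6 difference after irradiation was -0.44 log2 and did not pass the limma test (adjusted p = 0.217). Without irradiation the smallest Pax6 difference under any alternative was -1.15 log2, which is less than the bound of 8.07-fold. The dimmer probe was above background on non-irradiated LGR5lo replicate 2 alone, the array that stood apart, and failed the filter.

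Nkx2-2, a homeobox factor of several endocrine types in mice, was lower in LGR5hi cells in both arms, by an amount that depended on the probe. The brighter probe, at chr2:147008949-147009008, gave -1.10, -0.92, -0.97 and -0.98 log2 in irradiated LGR5hi cells against -0.13, 0.19, -0.34 and -0.11 log2 in irradiated LGR5lo cells. Without irradiation it gave -1.13, -0.97, -1.08 and -1.09 log2 in LGR5hi cells against 0.34, 0.57, 0.22, 0.58 and 0.72 log2 in LGR5lo cells. The sorts did not overlap, and the LGR5hi arrays varied little (SD of 0.07 in either arm). The difference was -0.90 ± 0.14 log2 after irradiation (adjusted p = 0.000806) and -1.56 ± 0.13 log2 without it (adjusted p = 2.59e-06). By the dimmer probe, at chr2:147003307-147003366, it was -3.89 ± 0.50 log2 after irradiation and -2.87 ± 0.47 log2 without it, with adjusted p of 0.000273 and 0.00177 in the limma fit of all probes. The tested Nkx2-2 difference after irradiation was -0.63 log2 under normexp correction and did not pass the test (adjusted p = 0.0513).

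**Figure D3:**
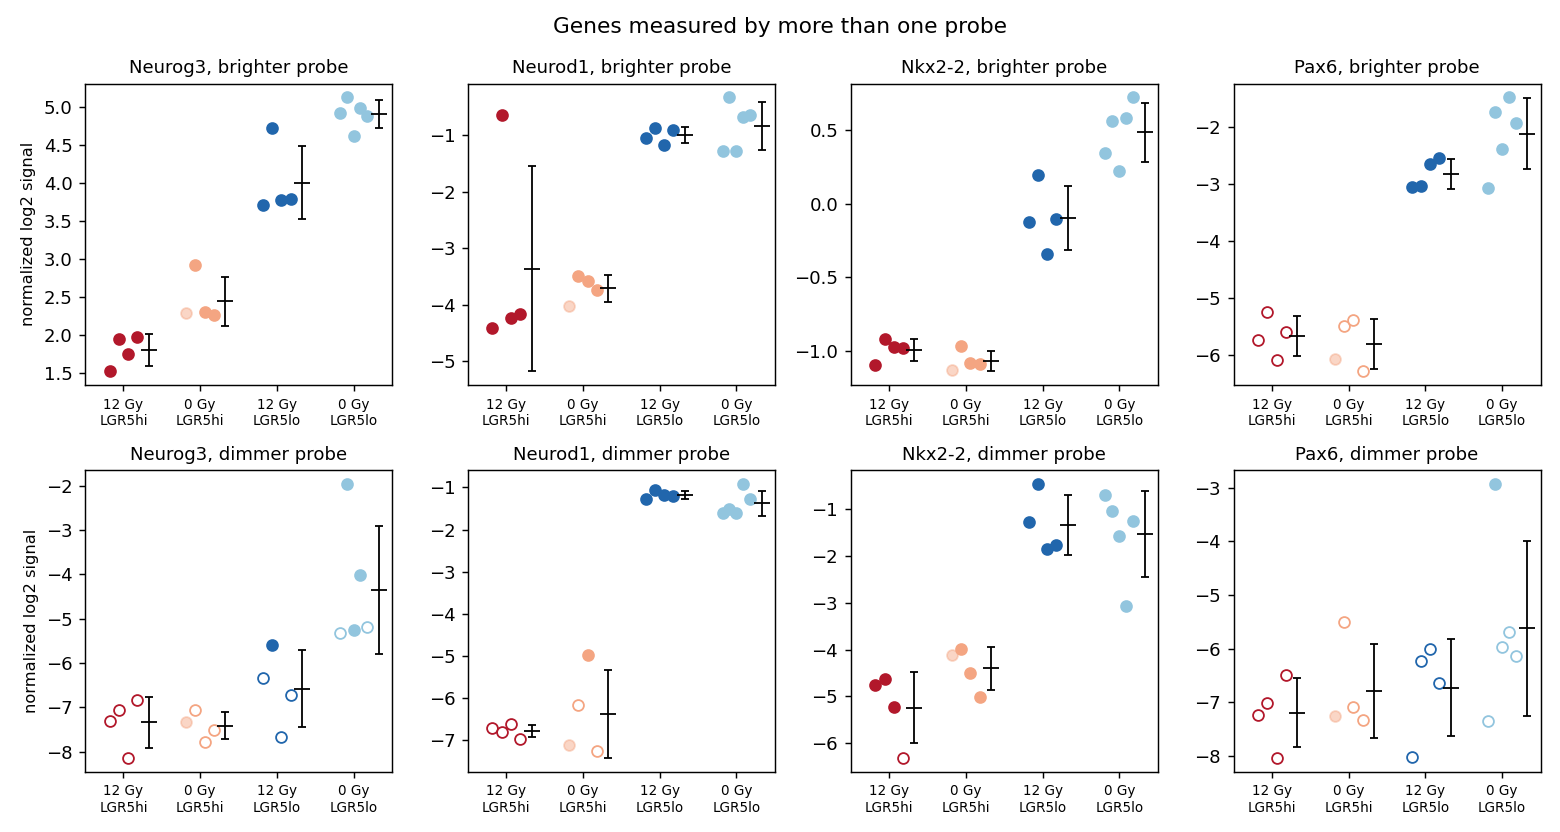
Normalized log2 signal (y axis, its own range in each panel) by group (x axis) for the 4 members with more than 1 probe, the brighter probe above and the dimmer probe below; circles and bars as for the tested probes, with open circles not above background. The high irradiated LGR5hi array of the brighter Neurod1 probe, at -0.65, does not stand apart on the dimmer probe, at -6.81.

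Irradiation changed 4 of the 9 members in LGR5hi cells, 1 up and 3 down. Hhex was higher, where 6.18% of all genes tested were called higher, and Pax4, Isl1 and Rfx6 were lower, where 7.29% were called lower (13.5% in either direction). The groups of 5 members did not overlap, these 4 and Neurog3, where 10.8% of genes were higher and 13% lower without overlap. The median difference of the 9 was -0.21 log2, against -0.02 log2 over all genes. Within slide 1 no member was called and within slide 2 Hhex alone was, and under normexp correction Hhex alone was called. Without non-irradiated LGR5hi replicate 2, 2 of the 9 were called.

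Pax4 fell to a mean of -3.64 log2 in irradiated LGR5hi cells, against -2.20 log2 in non-irradiated LGR5hi cells, a difference of -1.44 ± 0.31 log2 (2.72-fold lower, adjusted p = 0.00448). Every irradiated array was below every non-irradiated array. The difference was -1.82 log2 within slide 1 and -1.06 log2 within slide 2, and under normexp correction it was -0.53 log2 and did not pass the test (adjusted p = 0.361). Isl1 fell to a mean of -4.47 log2, against -3.63 log2 without irradiation, a difference of -0.83 ± 0.22 log2 (adjusted p = 0.0161), with 2 of 4 irradiated arrays above background, against 3 of 3. Under normexp correction the Isl1 difference was -0.10 log2 (adjusted p = 0.872). Rfx6 fell to a mean of -4.49 log2, against -3.40 log2 without irradiation, a difference of -1.09 ± 0.32 log2 (adjusted p = 0.0307), and under normexp correction the difference was -0.15 log2 (adjusted p = 0.827). Without irradiated LGR5hi replicate 4, the array below background, the Rfx6 difference was -0.71 log2 (adjusted p = 0.0699), and the call was also lost without non-irradiated LGR5hi replicate 2, 3 or 4 (adjusted p of 0.101, 0.0671 and 0.0602). The Isl1 call was lost without replicate 2 of either LGR5hi group (adjusted p of 0.0536 without the irradiated and 0.0528 without the non-irradiated array). With replicate number as a block, Rfx6 was no longer called (adjusted p = 0.0507) and Neurog3 was (adjusted p = 0.0199), although the numbers do not pair irradiated with non-irradiated arrays.

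Neurog3 averaged 1.80 ± 0.21 log2 in irradiated LGR5hi cells and 2.44 ± 0.32 log2 in non-irradiated LGR5hi cells (SD, n = 4 each, limma adjusted p = 0.0745). Neurod1 (0.35 ± 0.60 log2, adjusted p = 0.836), Pax6 (0.15 ± 0.31 log2, adjusted p = 0.869), Nkx2-2 (0.08 ± 0.14 log2, adjusted p = 0.849) and Insm1 (-0.21 ± 0.24 log2, adjusted p = 0.723) did not pass the test in LGR5hi cells. For Pax6 both LGR5hi groups were below background, so a difference between them could not have been read.

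Hhex was the member that rose. Its probe, at chr19:37514969-37515028 (mm9), gave -2.75, -1.43, -2.12 and -2.98 log2 in irradiated LGR5hi cells against -6.55, -5.28, -4.55 and -6.19 log2 in non-irradiated LGR5hi cells. All 4 irradiated arrays were above background and above every non-irradiated array, of which 1 of 3 with flags was above background. In LGR5lo cells it gave -1.84, -0.20, -1.51 and -1.38 log2 after irradiation against -1.11, -0.44, -0.73, -0.65 and -0.77 log2 without, and these groups overlapped. In LGR5hi cells the difference was 3.32 ± 0.44 log2 (adjusted p = 7.81e-05), and it was called in all 17 fits that each left out 1 array, at 3.02 to 3.69 log2. Its size rests on non-irradiated readings that were mostly not above background, and no fold is given. Under normexp correction, which left out the rebuilt array, the rise was 1.08 ± 0.27 log2 (adjusted p = 0.0166). It was 3.82 ± 0.75 log2 within slide 1 (adjusted p = 0.0938) and 2.82 ± 0.55 log2 within slide 2 (adjusted p = 0.0414).

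In LGR5lo cells the irradiation difference of Hhex was -0.49 ± 0.42 log2 (adjusted p = 0.456). The difference between both irradiation effects, which uses the same non-irradiated LGR5hi readings, was 3.81 ± 0.60 log2 (adjusted p = 0.0340). Hhex was the 1 member of 9 called in this comparison, where 0.0396% of genes (11 of 27768) were called, 0.036% with a higher and 0.0036% with a lower effect in LGR5hi cells. This call was kept in 4 of the 17 fits that each left out 1 array, with a value of 3.51 to 4.17 log2 and an adjusted p of 0.0132 to 0.119. It was lost under normexp correction (1.53 log2, adjusted p = 0.419), with no filter on dim probes (adjusted p = 0.0611), with slide as a block (adjusted p = 0.108) and within either slide alone. Between the sorts, Hhex differed by -1.09 ± 0.44 log2 after irradiation (adjusted p = 0.189) and by -4.90 ± 0.42 log2 without it (adjusted p = 2.22e-06), or -2.09 ± 0.26 log2 under normexp correction (adjusted p = 8.73e-05). Somatostatin, Sst, the hormone of delta cells, was named here after its values were seen. Sst averaged -1.58 ± 1.66 log2 in irradiated LGR5hi and -0.13 ± 1.56 log2 in non-irradiated LGR5hi cells (SD, n = 4 each), a difference of -1.45 ± 0.74 log2 that did not pass the limma test (adjusted p = 0.264).

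Markers of other cell types that express Hhex were read beside it, and their part in the Hhex result was not tested. Of 6 endothelial markers 3 were tested and none of these was called in LGR5hi cells, with a mean level of -1.67 to -0.86 log2 over the irradiated arrays and -1.56 to -1.10 log2 over the non-irradiated arrays; Cdh5, Tie1 and Emcn did not pass the filter. Of 5 B cell markers 1 was higher in irradiated LGR5hi cells, where 6.18% of all genes were called higher. It was Cd79b, a subunit of the B cell receptor, by 1.41 ± 0.26 log2 (adjusted p = 0.00132). The mean level of the 5 was -3.59 to -2.90 log2 over irradiated and -3.63 to -3.15 log2 over non-irradiated LGR5hi arrays, and Ms4a1, which defines mature B cells, was not above background in non-irradiated LGR5hi cells. In LGR5lo cells Cd79b was also higher after irradiation, by 0.87 ± 0.24 log2 (adjusted p = 0.0406), where Hhex was not called.

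**Figure D4:**
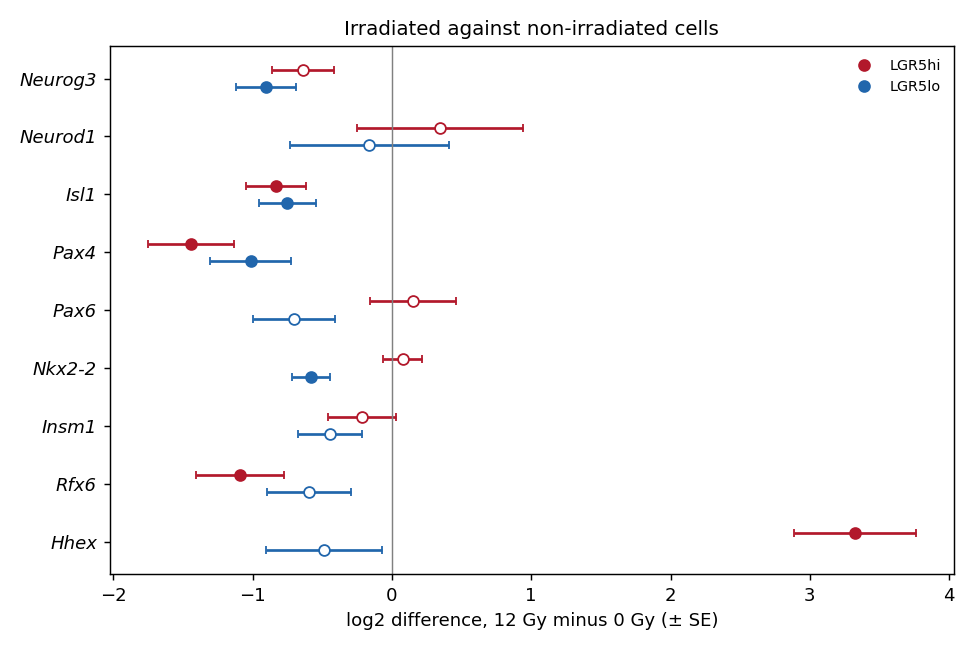
Log2 difference of irradiated minus non-irradiated cells (x axis, ± SE) for each member in LGR5hi and in LGR5lo cells, filled where it passed the test over all genes. Hhex in LGR5hi cells lies at 3.32, and all 9 members in LGR5lo cells lie below 0.

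In LGR5lo cells, where the members' signals were higher, irradiation lowered 4 of the 9 and raised none, where 3.02% of all genes were called lower, 4.47% higher and 7.49% in either direction. Nkx2-2 alone had groups that did not overlap, where 4.87% of genes were lower and 5.95% higher without overlap. All 9 differences were below 0, from -1.01 log2 for Pax4 to -0.16 log2 for Neurod1, with a median of -0.59 log2 against -0.13 log2 over all genes. The median of all genes depended on the scaling, at 0.06 log2 under quantile normalization and -0.01 log2 under median centring, and the members' median was then -0.60 and -0.47 log2, with all 9 still below 0. The number of calls changed when 1 array was left out: 0 of the 9 were called without irradiated LGR5lo replicate 3 (against 4 with it), 1 without irradiated LGR5lo replicate 1 or 4, and 2 without non-irradiated LGR5lo replicate 2, 4 or 5. Without irradiated LGR5lo replicate 3 the differences were -0.83 log2 for Neurog3 (adjusted p = 0.0637), -0.50 for Nkx2-2 (adjusted p = 0.0662), -0.65 for Isl1 (adjusted p = 0.136) and -0.95 for Pax4 (adjusted p = 0.137). Irradiated LGR5lo replicate 2 was the highest irradiated LGR5lo array for each of these 4. Without that array the differences were larger, at -1.14 log2 for Neurog3, -0.68 for Nkx2-2, -0.94 for Isl1 and -1.31 for Pax4. Median centring left 1 call, no filter on dim probes 2, and either slide alone 0, although all 9 were below 0 within each slide.

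Neurog3 fell to a mean of 3.996 ± 0.48 log2 in irradiated LGR5lo cells, against 4.90 ± 0.19 log2 in non-irradiated LGR5lo cells (SD, n = 4 and 5), a difference of -0.90 ± 0.21 log2 (1.87-fold lower, limma adjusted p = 0.0158). Irradiated replicate 2, at 4.71 log2, overlapped the non-irradiated arrays, and the other irradiated arrays lay below all of them. The Neurog3 difference was -0.80 log2 within slide 1 and -1.02 log2 within slide 2. Nkx2-2 fell to a mean of -0.10 log2, against 0.49 log2 without irradiation, a difference of -0.58 ± 0.13 log2 (adjusted p = 0.0143), but its dimmer probe read 0.18 ± 0.47 log2 in the other direction and did not pass the test. Isl1 fell to a mean of -0.78 log2, against -0.03 log2 without irradiation, a difference of -0.75 ± 0.21 log2 (adjusted p = 0.0365). Pax4 fell to a mean of 0.11 log2, against 1.13 log2 without irradiation, a difference of -1.01 ± 0.29 log2 (adjusted p = 0.0468), and kept its call in 5 of the 17 fits that each left out 1 array. With replicate number as a block Isl1 lost its call (adjusted p = 0.0611), and Pax4 lost its call with sex as a covariate (adjusted p = 0.0555).

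Pax6 (-0.70 ± 0.30 log2, adjusted p = 0.165), Rfx6 (-0.59 ± 0.30 log2, adjusted p = 0.237), Insm1 (-0.44 ± 0.23 log2, adjusted p = 0.249) and Neurod1 (-0.16 ± 0.57 log2, adjusted p = 0.868) did not pass the test in LGR5lo cells. Of the members other than Hhex, none had irradiation effects in LGR5hi and LGR5lo cells that differed by the limma test over all genes. For Nkx2-2 the difference of the effects was 0.66 ± 0.19 log2, with an unadjusted p of 0.00401 and an adjusted p of 0.498.

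The wider endocrine programme was followed through lists chosen with earlier results of these data known. Of 20 other enteroendocrine transcription factors, 8 were lower in LGR5hi cells after irradiation, and without it 9 were lower and 1 higher, with medians of -0.53 and -0.82 log2. Of all genes, 4.09% were called lower after irradiation, and 4.93% lower and 4.62% higher without it. Lmx1a, a LIM homeobox factor of serotonin cells, differed by -4.94 ± 0.33 log2 between LGR5hi and LGR5lo cells after irradiation (adjusted p = 2.50e-07). Irradiation raised none of the 20 in either sort. It lowered 6 in LGR5hi cells, where 7.29% of all genes were called lower, and 2 in LGR5lo cells, where 3.02% were. In LGR5hi cells these included Runx1t1 (-1.60 ± 0.30 log2, adjusted p = 0.00159) and Foxa2 (-1.12 ± 0.22 log2, adjusted p = 0.00257), a forkhead factor of endodermal organs. In LGR5lo cells they were the corepressor gene Rcor2 (-1.37 ± 0.25 log2, adjusted p = 0.00300) and Etv1 (-0.80 ± 0.20 log2, adjusted p = 0.0219).

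Hormone and granule genes, which these factors act upon, were lower in LGR5hi cells as well. Of 14 hormone and serotonin genes 12 were lower in LGR5hi cells in either arm, with a median of -3.92 log2 after irradiation and -3.63 log2 without it. Of all genes, 4.09% were called lower after irradiation and 4.93% without it. Gip, a hormone of K cells, differed by -6.28 ± 0.41 log2 after irradiation (adjusted p = 2.22e-07). Of 13 granule genes 10 were lower in LGR5hi cells after irradiation and 9 without it, and Chga, a granule protein of most enteroendocrine cells, showed -4.78 ± 0.35 log2 after irradiation (adjusted p = 6.42e-07). Irradiation raised 3 of the hormone and serotonin genes in LGR5lo cells and lowered none. Of all genes, 4.47% were called higher and 3.02% lower in LGR5lo cells, and 6.18% and 7.29% in LGR5hi cells. The 3 raised genes were Tph1, the enzyme of serotonin synthesis, by 2.10 ± 0.29 log2 (adjusted p = 0.000272), Tac1, which encodes substance P, by 1.62 ± 0.25 log2 (adjusted p = 0.000757), and Ucn3 by 1.42 ± 0.37 log2 (adjusted p = 0.0301). In LGR5hi cells Tac1 and Tph1 were also higher, by 1.62 ± 0.27 log2 (adjusted p = 0.000556) and 1.24 ± 0.31 log2 (adjusted p = 0.0122), and Nts, neurotensin, showed -3.64 ± 0.60 log2 with 2 of 4 irradiated arrays above background (adjusted p = 0.000613). Of the granule genes, Ddc and Pcsk1 were lower in irradiated LGR5hi cells (-1.56 ± 0.28 log2, adjusted p = 0.00118, and -1.02 ± 0.22 log2, adjusted p = 0.00408), and Vgf was higher in irradiated LGR5lo cells (3.99 ± 0.67 log2, adjusted p = 0.00142).

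**Figure D5:**
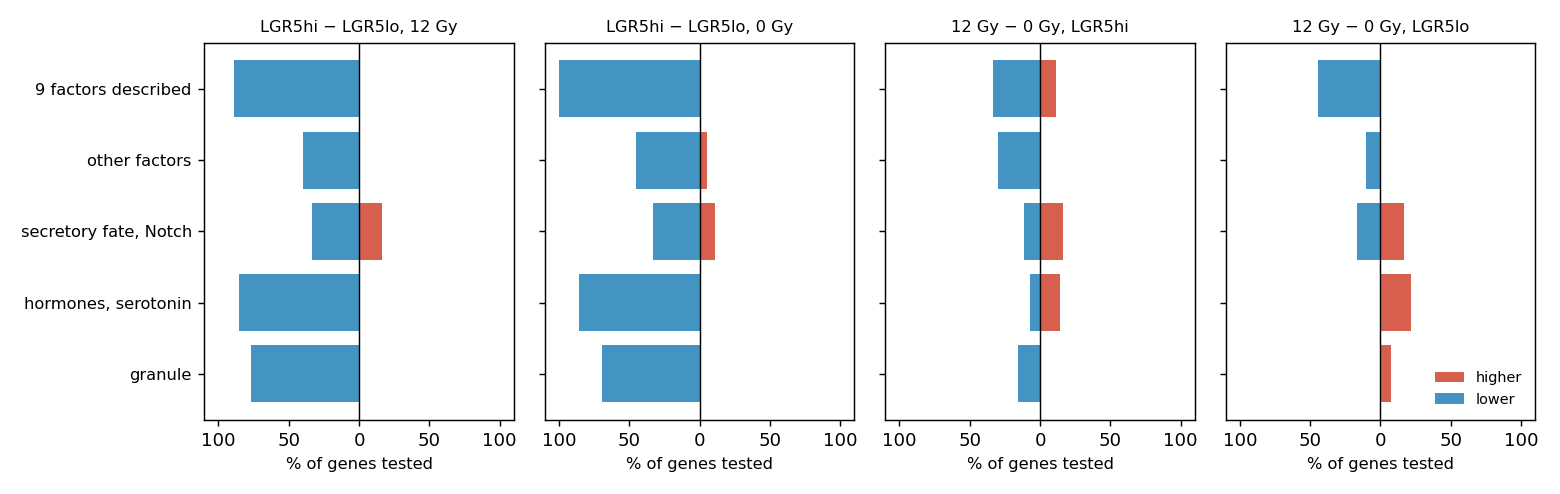
Share of the tested genes of each list (x axis, percent) called higher, to the right of 0, or lower, to the left, in 4 comparisons. All 9 factors described are lower in LGR5hi cells at 0 Gy and 8 of 9 after 12 Gy, and 12 of 14 hormone and serotonin genes are lower in both.

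The 18 secretory fate and Notch genes were mixed. In LGR5hi against LGR5lo cells 6 were lower and 3 higher after irradiation, and 6 lower and 2 higher without it. Of all genes, 4.09% were called lower and 2.21% higher after irradiation, and 4.93% and 4.62% without it. Atoh1, the factor that opens the secretory lineage, was -2.75 ± 0.35 log2 after irradiation (adjusted p = 0.000117) and -2.45 ± 0.33 log2 without it (adjusted p = 0.000175). Irradiation raised 3 and lowered 2 of the 18 in LGR5hi cells, where 6.18% of all genes were called higher and 7.29% lower. In LGR5lo cells it raised 3 and lowered 3, where 4.47% were called higher and 3.02% lower. The receptor gene Notch3 was higher in irradiated LGR5hi cells by 7.26 ± 0.32 log2 (adjusted p = 1.64e-09) and in irradiated LGR5lo cells by 6.46 ± 0.31 log2 (adjusted p = 4.20e-09). The ligand gene Jag2 was higher by 4.20 ± 0.29 log2 in LGR5hi (adjusted p = 1.03e-07) and by 2.23 ± 0.27 log2 in LGR5lo cells (adjusted p = 8.38e-05).

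Other epithelial lineages moved with the sort too, and their part in the difference between the sorts was not tested. Of all genes, 4.09% were called lower and 2.21% higher in LGR5hi cells after irradiation, and 4.93% and 4.62% without it. Of 5 goblet markers tested 4 were lower in LGR5hi cells in each arm, and the mean level of the list was 5.46 to 5.95 log2 over irradiated LGR5hi arrays against 7.80 to 8.30 log2 over irradiated LGR5lo arrays. Of 6 tuft markers 4 were lower in LGR5hi cells after irradiation and 6 without it. Of 4 Paneth markers tested none was called after irradiation, and without it 1 was lower in LGR5hi cells. None of 7 enterocyte, 5 leukocyte or 3 mesenchyme markers tested was called between the sorts in either arm, and neither was any of the 3 endothelial markers. Irradiation called none of the goblet, tuft, enterocyte, endothelial or mesenchyme markers tested in either sort, while 1 Paneth marker was higher in LGR5hi and 1 leukocyte marker lower in LGR5lo cells. For irradiation, 6.18% of all genes were called higher and 7.29% lower in LGR5hi cells, and 4.47% and 3.02% in LGR5lo cells. All 10 enteroendocrine markers, which include Neurog3 and Neurod1, were lower in LGR5hi cells in each arm, and irradiation raised 2 of them in LGR5hi cells, and in LGR5lo cells raised 2 and lowered 1. Of 8 enteric neuron and glia markers 5 were tested, and 2, Ret and Tubb3, were lower in LGR5hi cells in both arms. Of the B cell markers 2 were lower in LGR5hi cells without irradiation and none was called after it.

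The genes nearest to each member were sought over 16 arrays and 17904 named genes, by the root mean square difference of values centred on each gene's own mean, leaving out non-irradiated LGR5lo replicate 2. These distances are descriptions over arrays that share 2 sorts and 2 doses. Insm1 lay nearest to Gfra3, at 0.19 log2, and Isl1 nearest to Fbxl16 (0.25 log2) and Cryba2 (0.31 log2). Pax4 had Nefm (0.34 log2), Runx1t1 (0.36 log2) and its fellow member Isl1 (0.40 log2) nearest. Rfx6 had Scn3a (0.38 log2), Runx1t1 (0.44 log2) and Isl1 (0.46 log2), and Pax6 had Galnt5 (0.44 log2), Lrrc27 (0.45 log2) and Insm1 (0.45 log2). Neurog3 lay nearest to Mgll (0.28 log2), Nkx2-2 to Rab37 (0.15 log2) and Neurod1 to Disp2 (0.53 log2). The genes nearest to Hhex were the glutathione peroxidase gene Gpx3 (0.56 log2), Fxyd6 (0.65 log2) and Il6ra (0.82 log2). Gpx3 was 3.78 log2 higher in irradiated than in non-irradiated LGR5hi cells, against 0.82 log2 in LGR5lo cells.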

How the data were processed

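Each array's deposited file gives 1 linear intensity of the dye Cy3 for every spot, from Agilent Feature Extraction 10.7.3.1, which the authors' software had subtracted for background and detrended, per the file headers, with no normalization between arrays. The deposited series table holds log2 values of the same arrays. One damaged file, with 15329 of 62976 spots readable, was rebuilt from that table, and 100% of 13422 single-spot probes in its readable part lay within 0.02 log2 once a constant was removed. The damaged file's own column is given the unit other, since the deposited text holds cells that are not numbers.

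From each log2 processed signal the 75th percentile of its array was subtracted, with replicate spots averaged and outlier spots left out. The filter kept 41440 of 55681 probes other than controls, those flagged by the scanner software as well above background on 4 or more arrays. The brightest kept probe of each gene name was tested, and symbols were updated through RefSeq accessions for 2838 probes. Group means over 17 arrays were fitted with limma 3.58.1 in R 4.3.3, and other steps used Python 3.11.15, matplotlib 3.10.9, pandas 2.3.3 and numpy 2.4.6. The number of arrays limits the precision. On simulated data for irradiation in LGR5hi over 27768 genes, 42% of changes of 1 log2 and 97% of changes of 4 log2 were recovered, with 12 false calls among 151.

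The members and lists were chosen with earlier results of these data known. The lists were other enteroendocrine transcription factors, secretory fate and Notch, hormone and serotonin, granule, and cell type markers. Of a list, up to 4 called genes with the smallest p were open to naming, and 1 such gene is not reported here. The 3 nearest genes of each member and the checks Lgr5 and Cdkn1a were also named. Alternatives were quantile normalization, median centring, normexp correction (offset 50, 16 arrays), no filter or a filter at 8 arrays, the deposited log2 table in place of the scanner files, averaging all probes of a gene, replicate or slide as a block, each slide alone, sex as a covariate, other probes, and each array left out. Same-numbered LGR5hi and LGR5lo arrays of an arm deviated together in all 8 pairs (correlations of 0.12 to 0.46). These arrays also share slide and sex, and the labels state no pairing. A pairing of the sorts by number therefore cannot be told apart from slide and sex. Blocking on the numbers changed no count of members called between the sorts.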

Additional observations from a re-analysis of the deposited data

Results flagged for a closer look

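In 5 of 36 groups of 4 or 5 arrays, 1 array lay further from the rest than Dixon's critical value allows; chance alone would give such a group about 1 time in 20. They were Neurog3 in non-irradiated LGR5hi replicate 2, at 2.91 log2, and in irradiated LGR5lo replicate 2, at 4.71 log2, Rfx6 in irradiated LGR5lo replicate 2, at 0.361 log2, and Pax4 in non-irradiated LGR5lo replicate 3, at 0.65 log2. The last was Neurod1 in irradiated LGR5hi replicate 2, at -0.654 log2 by the brighter probe, which was not apart by the dimmer probe. The irradiation effect of Hhex in LGR5hi cells exceeded that in LGR5lo cells by 3.81 log2 (limma adjusted p = 0.0340), a difference tested by the interaction itself, with 1 of 3 non-irradiated LGR5hi arrays with flags above background.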

How the results depend on the processing

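Of the members' differences under the alternatives other than leaving out 1 array, 113 of 121 between the non-irradiated sorts, 110 of 121 between the irradiated sorts, 92 of 112 for irradiation in LGR5hi, 91 of 112 for irradiation in LGR5lo and 104 of 121 for the difference of those effects kept their direction and their side of the threshold. With 1 array left out, the counts were 153, 146, 144, 128 and 136 of 153. Differences near or below background, as for Pax6 in LGR5hi cells, are limited by signal over background. The causes of the changes below were not tested.

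After irradiation, the members called between the sorts were 5 under normexp correction and 4 within slide 1, and the genes called were 319 and 118 within slides 1 and 2. Without irradiation, 2 members were called within slide 1, and the genes called were 986 under normexp and 105 and 246 within slides 1 and 2. For irradiation in LGR5hi cells the members called were 1 under normexp and 0 and 1 within slides 1 and 2, and the genes called were 2301, 265 and 1567. In LGR5lo cells the members called were 1 under median centring, 2 with no filter, and 0 within each slide, and the genes called were 42 and 461 within slides 1 and 2. For the difference of the effects 0 members were called under normexp, with no filter, with slide as a block and within each slide, and the genes called were 2 under normexp, 2 with slide as a block, 19 with a replicate block within arm, and 0 within each slide. With 1 array left out, members called ranged over 9 to 9, 7 to 8, 2 to 5, 0 to 4 and 0 to 1 in the order of the first sentence, and genes called over 1439 to 4226, 1062 to 2868, 2842 to 5191, 1179 to 2538 and 0 to 26.

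With replicate number as a block, 9, 8, 4, 3 and 1 members were called, and 2083, 2112, 4352, 2491 and 14 genes, in the same order. The labels do not say whether the numbers pair the sorts within an arm, and they do not pair irradiated with non-irradiated arrays.

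The Nkx2-2 fall in LGR5lo cells, which had passed the test, turned to 0.18 log2 by the other probe. The other turns of sign were of values that had not passed it. For irradiation in LGR5hi cells, the mean of a gene's probes gave -0.027 log2 for Neurod1 and -0.38 for Nkx2-2. The other probe gave -0.40 for Neurod1, 0.079 for Neurog3, -0.84 for Nkx2-2 and -0.40 for Pax6, and slide 2 gave -0.54 for Neurod1 and -0.0020 for Pax6. Leaving out an array gave -0.56 (irradiated LGR5hi replicate 2) to 0.69 for Neurod1 and -0.0070 (non-irradiated LGR5hi replicate 4) to 0.29 for Pax6. In LGR5lo cells Neurod1 gave 0.021 log2 by the mean of probes and 0.20 by the other probe. For the difference of the effects, Neurod1 gave -0.048 by the mean of probes, -0.60 by the other probe, -0.48 within slide 2 and -0.40 (irradiated LGR5hi replicate 2) to 0.85 with 1 array left out. Nkx2-2 gave -0.18 by the mean of probes and -1.02 by the other probe. Normexp gave 0.56 for Isl1, 0.52 for Pax4 and 0.43 for Rfx6. Slide 1 gave -0.33 for Insm1 and -0.062 for Neurog3, slide 2 gave 0.16 for Isl1 and 0.038 for Pax4, and leaving out an array gave -0.19 to 0.11 for Isl1 (above 0 without irradiated LGR5hi replicate 2, non-irradiated LGR5lo replicate 3 or irradiated LGR5lo replicate 2).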
